A study of Populus tomentosa with 12 samples.

Results

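Isoprene synthase is the plastid enzyme that releases isoprene, a volatile hydrocarbon, from dimethylallyl diphosphate. Its substrate comes from the methylerythritol phosphate pathway of the plastid, whose last enzymes carry iron-sulfur clusters. Poplars are known as strong isoprene emitters, mainly from mature leaves, where the gas is tied to tolerance of heat and oxidative stress. The 2 gene copies described here, Potri.007G118400 and Potri.017G041700, were chosen by their IDs from the 42950 gene IDs listed for each library. That these IDs are isoprene synthase copies was taken as given, because the count files pair no ID with a name. The IDs have the form of gene models of Populus trichocarpa (black cottonwood), while the RNA came from Populus tomentosa (Chinese white poplar). How far sequence differences between these species affect the counts was not tested.

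RNA was sequenced from plantlets at the seedling stage, micropropagated on woody plant medium with 1.5% sucrose and 1 mg/L of the auxin NAA, at 24 °C, 16 h of light per day and a photon flux of about 50 µmol per m2 and s. Plants with shoots of about 10 cm were moved to liquid medium. This held 100 µM iron in the Fe-sufficient group and 0 µM iron in the Fe-deficient group, and roots and shoots were taken separately. This gave 4 groups of 3 libraries, called biological replicates in the labels, which do not say which plants went into each. Plant genotype, plant age and treatment length are not given in the sources used. Shoot libraries are titled CK with Fe and WT without it, which the labels do not explain. In bulk tissue, more transcript per cell and more cells that hold the transcript cannot be told apart. The labels do not say which parts or leaf ages of the shoot were taken.

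The depth, as reads in genes, was 8663523 to 10886552 per root library and 5360670 to 6149779 per shoot library. The counter gave some aligned reads to no gene. In roots they made up 1.25% to 1.41% of the reads it judged (in a gene, in none or ambiguous). In shoots their share was 49.5% to 50.0%, so levels set across tissues depend on the scaling. This share split fully by tissue, so its effect and that of tissue cannot be told apart. Whether it shifted the counts of single genes, which no scaling would correct, was not tested. The strand setting is not given, so reads outside genes and reads on the opposite strand of a gene cannot be told apart here. Levels are given below as CPM, counts per 1e6 reads in genes after TMM normalisation (a scaling that assumes most genes do not change) over all 12 libraries, unless stated otherwise. No table of names matched the IDs, so neither the tissue labels against marker genes nor the other genes of the isoprenoid pathway could be checked.

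Potri.007G118400 had 0 counts in each of the 12 libraries, in roots and shoots and with and without Fe. Taking 3 counts as the limit that a count of 0 allows, its level was at most 0.623 to 0.667 CPM in single Fe-sufficient shoot libraries and 0.527 to 0.539 CPM in Fe-deficient ones. In root libraries the limits were 0.261 to 0.277 CPM with Fe and 0.231 to 0.307 CPM without. Over all reads in genes of each tissue together, the limit was 0.0845 CPM in shoots and 0.0520 CPM in roots, here without TMM. These limits cover counting error only. A listed count is a read that the counter gave to that ID alone. Reads with more than 1 reported alignment made up 8.07% to 9.92% of all reads listed, and reads of low mapping quality 19.5% to 24.9%; whether any of them came from this copy was not tested. A count of 0 in all libraries was shared by 8962 of the 42950 IDs (20.9%). With no counts in any library, Potri.007G118400 entered no test, and the planned ratio of the copies' counts was not computed, since it would have followed Potri.017G041700 alone.

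Potri.017G041700 was detected in every library and carried all counts of the pair. Whether some of these counts came from transcripts of the other copy was not tested. Shoots held far more of Potri.017G041700 than roots. With Fe, the shoot replicates 1, 2 and 3 had 4852, 7865 and 2695 counts, or 1026, 1633 and 598.8 CPM. Without Fe they had 4204, 3680 and 3445 counts, or 754.8, 647.0 and 618.5 CPM. The Fe-sufficient shoots thus held both the highest and the lowest of the 6 shoot libraries, and the Fe-deficient ones lay between them. In roots with Fe the counts were 203, 218 and 154, or 18.8, 19.0 and 13.7 CPM, and in roots without Fe they were 112, 132 and 138, or 11.5, 13.2 and 10.6 CPM. Every root library without Fe lay below every root library with Fe, though the nearest values were close, at 13.2 and 13.7 CPM. Such an order held for 10.6% of the genes tested in roots.

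**Figure D1:**
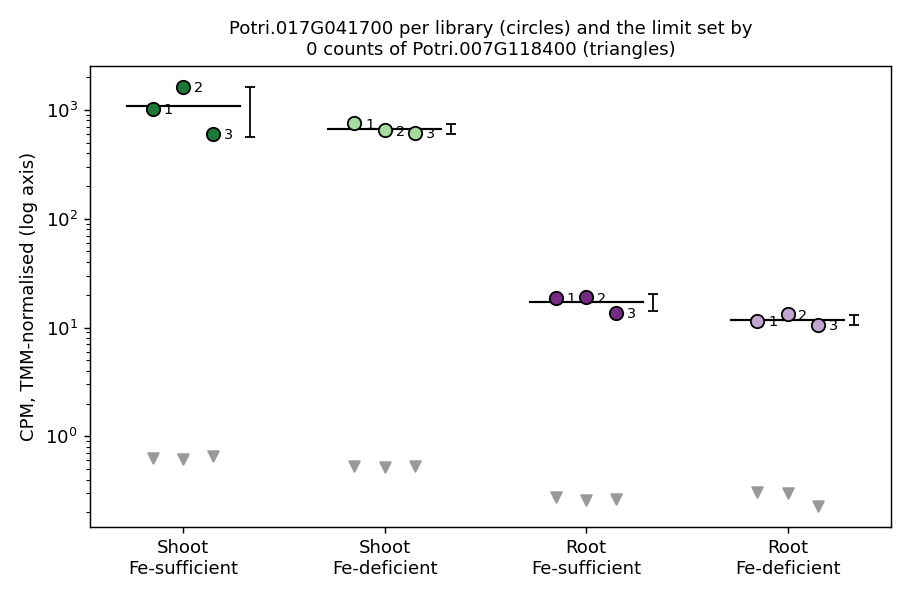
Level of Potri.017G041700 in each library (circles, numbered by replicate) as TMM-normalised CPM on a log axis, by tissue and Fe supply; horizontal lines are group means and the bars beside them the SD (n = 3 each). The shoot libraries lie at 598.8 CPM or more and the root libraries at 19.0 CPM or less, and the grey triangles give the limit set by 0 counts of Potri.007G118400 in the same libraries, 0.667 CPM or less.

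In order of mean level, the groups were Fe-sufficient shoots with 1086 ± 520 CPM, Fe-deficient shoots with 673 ± 71.9 CPM, Fe-sufficient roots with 17.1 ± 3.01 CPM and Fe-deficient roots with 11.7 ± 1.30 CPM (SD, n = 3 each). The shoot groups overlapped, so their order does not exceed the spread of the replicates. Shoots and roots were well apart, the lowest shoot library being 31.5 times the highest root library. Within a library, Potri.017G041700 ranked between place 62 and place 210 by count in shoots, above 99.2% to 99.8% of the 27402 to 28215 genes detected there. In roots its place was 10094 to 13742, above 53.3% to 65.4% of the 28923 to 29512 genes detected. These places are by read count and are not corrected for gene length. The gene took 0.0503% to 0.135% of all reads in genes in shoots and 0.00127% to 0.00221% in roots.

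The difference between tissues was tested at each Fe supply in 1 fit of all 12 libraries with edgeR's quasi-likelihood test. With Fe, Potri.017G041700 was 63.3-fold higher in shoots than in roots, or 5.98 ± 0.342 on the log2 scale (SE; 95% interval 5.25 to 6.72; adjusted p by edgeR 3.81e-09). Of 25046 genes tested, 31.2% were called higher in shoots with Fe, so the call by itself is common, while the size placed the gene 772nd from the highest log2 fold change. Without Fe it was 57.3-fold higher, or on the log2 scale 5.84 ± 0.342 (SE; 95% interval 5.10 to 6.58; adjusted p by edgeR 6.74e-09), the 737th highest, where 31.3% of genes were called higher. Both SEs rest on an estimate of spread shared by all groups. Fitted on only the 6 libraries of each supply, the log2 fold change was 6.04 ± 0.412 with Fe and 5.84 ± 0.181 without (SE). Against these values, the median log2 fold change of all tested genes in the fit of 12 libraries was -0.06 with Fe and -0.04 without. Shoot and root libraries did not overlap at either supply, which in the same direction held for 32.8% of tested genes with Fe and 34.4% without. Over all 6 shoot and 6 root libraries, with both Fe supplies shuffled together, the two-sided exact permutation p was 0.00217, the smallest this number of libraries allows. Any gene without overlap between the tissues gives this p, so it adds nothing to the lack of overlap.

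Between tissues, 16002 of 25046 genes were called in either direction with Fe and 15738 without (edgeR, adjusted p under 0.05). Of these, 7822 were higher in shoots with Fe and 7835 without. So many calls put the TMM assumption that most genes do not change in doubt between tissues. They cannot test it, since they come from fits scaled by TMM and include small changes. The fold between tissues depended on what the counts were divided by. With library size alone it was 45.0 with Fe and 45.8 without, and with reads in no gene and ambiguous reads added to the library size it was 23.7 and 24.1. Divided by all reads listed, a scaling chosen after the data were seen, it was 31.7 and 31.6. Under these 3 scalings the median log2 fold change of all genes also moved, to -0.55, -1.50 and -1.07 with Fe. The gene was called higher in shoots under each of them.

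**Figure D2:**
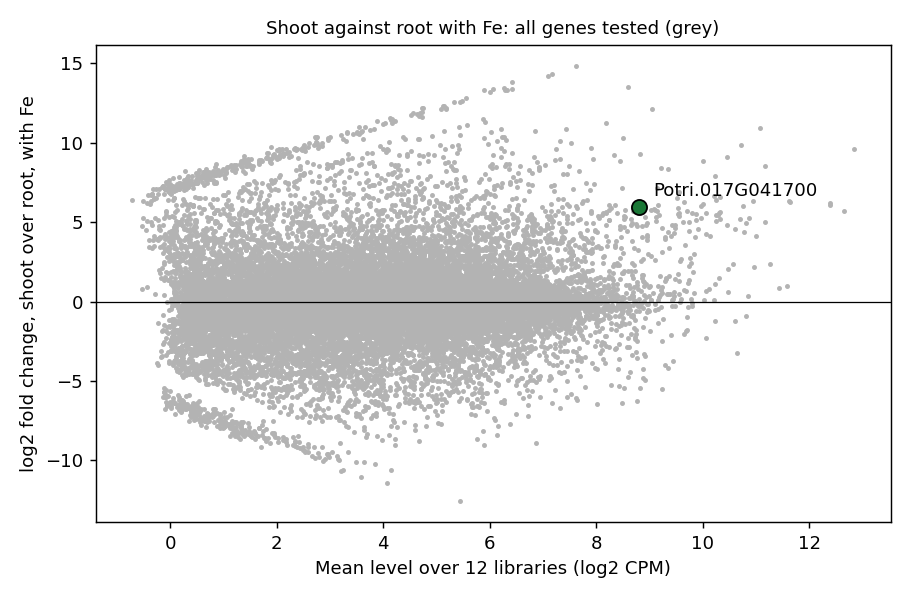
Each point is 1 of the 25046 genes tested, placed by its mean level over the 12 libraries (log2 CPM, horizontal) and its log2 fold change of shoot over root with Fe (vertical). Potri.017G041700 (green) lies at 5.98, among the abundant genes with a large shoot excess.

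The effect of Fe supply on Potri.017G041700 was then tested in each tissue on its own 6 libraries. In shoots the fitted log2 fold change of Fe-deficient over Fe-sufficient was -0.69 ± 0.304 (SE; 95% interval -1.37 to -0.02), a fold of 0.618, and it did not pass the threshold (unadjusted p 0.0449, adjusted p by edgeR 0.527). Among 21665 genes tested in shoots, 0.531% were called lower without Fe and 5.15% were lower at an unadjusted p under 0.05. The two-sided exact permutation p of the log2 CPM was 0.4, where 0.1 is the smallest that 3 against 3 libraries allow. The 95% interval runs from a fold of 0.387 to one of 0.987.

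The shoot value moved most with single Fe-sufficient libraries. Without replicate 2, the library with the highest level, the log2 fold change was -0.28 ± 0.213 (SE; adjusted p by edgeR 0.673), and without Fe-sufficient replicate 3, the library with the lowest level, it was -0.99 ± 0.225 (SE; adjusted p by edgeR 0.0711). Fe-sufficient replicate 2 was also the library least like its group over all genes. Its Spearman correlation with the rest of that group averaged 0.963, against 0.967 for each of the other Fe-sufficient shoots and 0.970 to 0.972 for the Fe-deficient ones. The 10 most abundant other genes took 7.10% to 9.28% of the counts of other genes in Fe-sufficient shoots and 5.18% to 5.73% in Fe-deficient ones, with TMM factors within shoots of 0.889 to 0.960 and 1.06 to 1.10. The part of these library differences in the value of Potri.017G041700 was not tested.

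The replicates of Potri.017G041700 were far more spread in Fe-sufficient shoots than in Fe-deficient ones. The SD was 47.9% of the mean with Fe, the highest replicate being 2.73 times the lowest, and 10.7% of the mean without Fe, where it was 1.22 times. Among 2085 genes with a mean of at least 100 CPM in Fe-sufficient shoots the median SD was 16.7% of the mean, and 97.5% of them had a smaller relative SD than Potri.017G041700. In Fe-deficient shoots the median was 10.4% over 2041 such genes, and 51.9% of them had a smaller one. In roots the SD was 17.5% of the mean with Fe and 11.1% without. The difference in spread between the supplies was not tested. The edgeR fits share an estimate of spread over their groups, so their SEs and p-values take the spread as equal.

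In roots the fitted log2 fold change of Potri.017G041700 was -0.56 ± 0.186 (SE; 95% interval -0.99 to -0.13), a fold of 0.678, and it did not pass the threshold either (unadjusted p 0.0174, adjusted p by edgeR 0.216). Among 23785 genes tested in roots, 0.370% were called lower without Fe and 8.27% were lower at an unadjusted p under 0.05. The root groups did not overlap, which in the same direction held for 10.6% of tested genes, and the two-sided exact permutation p was 0.1, the smallest possible. Summed over 3 libraries, the root value rests on 575 counts with Fe and 382 without. Leaving out single libraries gave log2 fold changes of -0.70 to -0.48, with adjusted p by edgeR of 0.162 to 0.451.

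**Figure D3:**
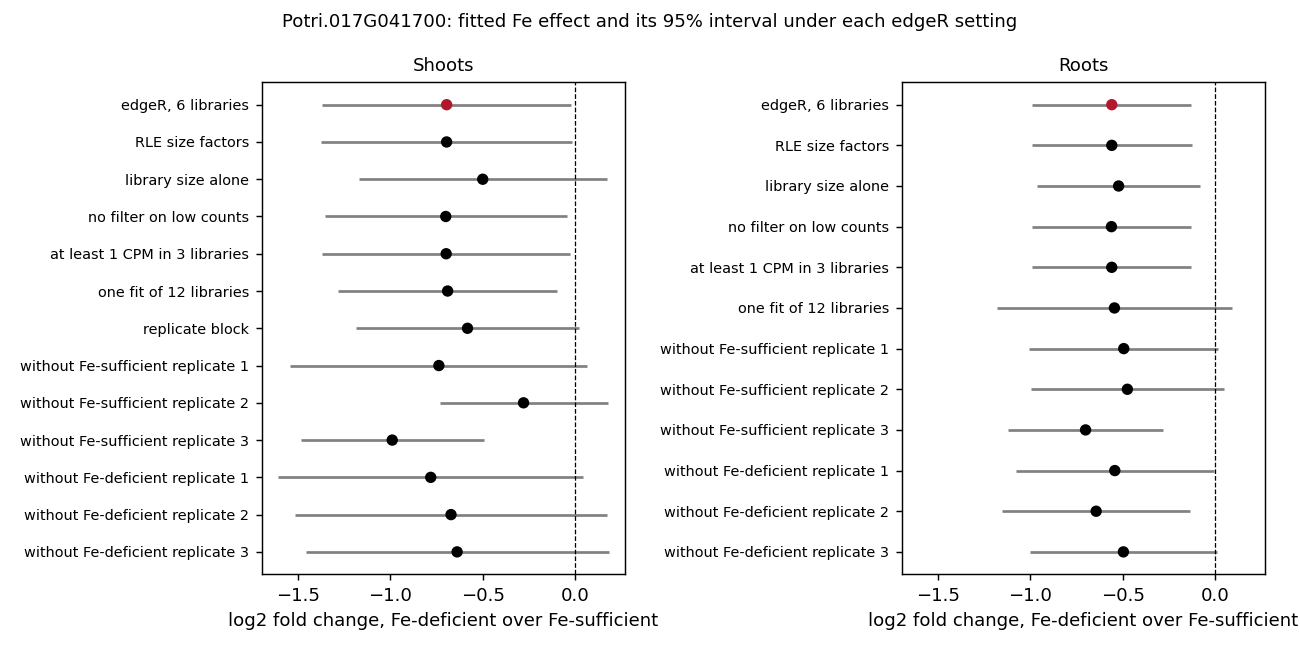
Fitted log2 fold change of Potri.017G041700 (Fe-deficient over Fe-sufficient, horizontal axis) in shoots (left) and roots (right) under each edgeR setting, with its 95% interval; red marks the fit of the 6 libraries as described. In shoots the value runs from -0.99 to -0.28, with both ends set by leaving out 1 Fe-sufficient library, and in roots from -0.70 to -0.48.

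The responses of the tissues to Fe supply were compared as a contrast of the 4 groups. The log2 difference for Potri.017G041700, root response minus shoot response, was 0.14 ± 0.404 (SE; 95% interval -0.73 to 1.01; adjusted p by edgeR 0.945), where 1.25% of 25046 genes were called in either direction. The interval spans folds of 0.605 to 2.02, so it does not show that the responses were alike.

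The genes whose pattern was most like that of Potri.017G041700 over the 12 libraries were Potri.014G157500 and Potri.017G084000, with a Pearson r of log2 CPM (prior count 2) of 0.997 and 0.996. The 12 libraries are 6 of roots and 6 of shoots, and any gene with a wide gap between the tissues in the same direction has a high r: 2980 of 25045 other genes (11.9%) had an r over 0.95 and 175 had one over 0.99. Over the 6 shoot libraries alone, the r was 0.923 for Potri.014G157500 and 0.929 for Potri.017G084000, and 100 genes (0.399%) had an r over 0.95. Over the 6 root libraries it was 0.786 and 0.574, the latter with 1 count in all root libraries. Potri.007G118400 has no counts, so no likeness to it exists.

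Potri.014G157500 had 171.8 ± 53.1 CPM in Fe-sufficient and 99.6 ± 6.87 CPM in Fe-deficient shoots (SD, n = 3 each), and 1.23 ± 0.298 and 0.767 ± 0.300 CPM in the roots. Its Fe-sufficient shoots, at 177, 222 and 116 CPM in replicates 1, 2 and 3, had the order of Potri.017G041700, with replicate 2 highest and replicate 3 lowest. Its Fe-deficient shoots, at 98.2, 107 and 93.5 CPM, did not, since replicate 2 was the highest there and replicate 1 was for Potri.017G041700. Both genes were picked by r over these same libraries, so a like order is no independent result. Between Fe supplies its shoot level differed by -0.79 ± 0.217 on the log2 scale (SE), short of the threshold (adjusted p by edgeR 0.142). Potri.017G084000 had 28.2 ± 15.5 CPM in Fe-sufficient and 14.9 ± 3.36 CPM in Fe-deficient shoots (SD, n = 3 each), and differed by -0.92 ± 0.379 on the log2 scale between them (SE; adjusted p by edgeR 0.479).

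**Figure D4:**
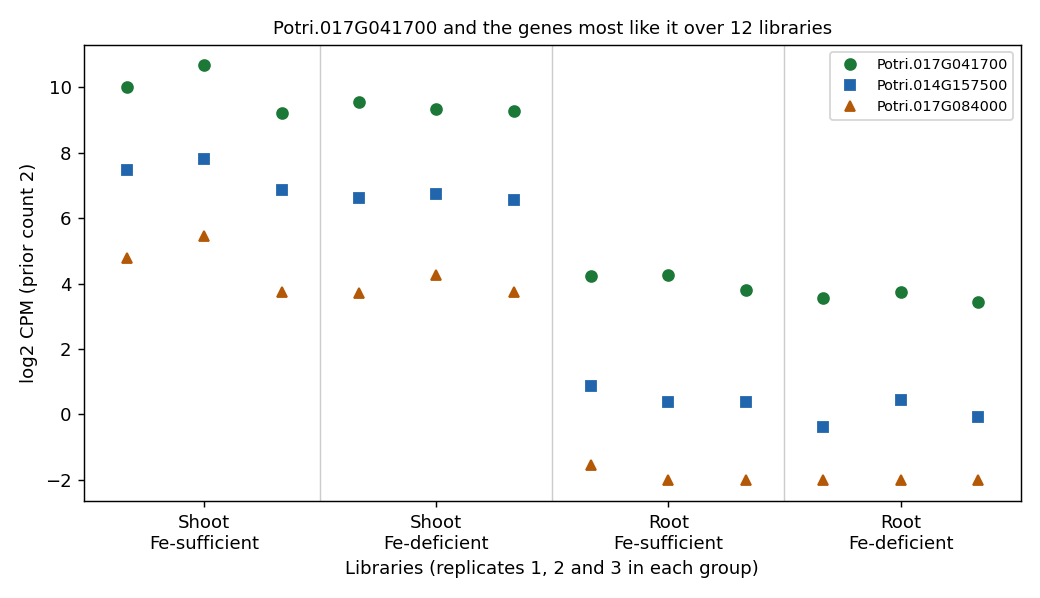
Level of Potri.017G041700 and of the 2 genes most like it (log2 CPM, prior count 2, vertical axis) in each of the 12 libraries, grouped by tissue and Fe supply. All 3 genes lie higher in every shoot library than in any root library, and all 3 are highest in Fe-sufficient shoot replicate 2. The 2 other genes were picked by their r over these same 12 libraries, so this likeness is no independent result.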

How the data were processed

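The authors deposited 1 file of raw counts per library, not normalised. The submitters' processing notes name HISAT2 2.0.5, HTSeq 2.2.1, Trimmomatic 0.36 and edgeR 3.16.5. Build, annotation and strand setting are not given in the sources used. The 5 rows of reads assigned to no gene (58.3% to 64.0% of reads listed in roots, 72.6% to 73.1% in shoots) stayed out of library sizes and tests.

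Genes were tested by quasi-likelihood in edgeR 4.0.16 under R 4.3.3 (robust, TMM, filterByExpr with minimum count 10). P-values were Benjamini-Hochberg adjusted over all genes tested, with a threshold of 0.05, and SE came from the log2 fold change and the F statistic. The code was checked on simulated counts. Alternatives were DESeq2 1.42.0, other scalings and filters, other sets of libraries, leaving out each replicate and a replicate block. The text names both copies and, for a copy with counts, the 2 genes with the highest Pearson r to it over 12 libraries. Members, lists and tests were chosen with earlier results of these data known. Root replicates were numbered in accession order. The P. tomentosa table PTv2 (60139 genes) matched 0 of the IDs, so the planned pathway and marker lists were not used and no sequence is shown. No pair of replicates agreed within sampling noise.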

Additional observations from a re-analysis of the deposited data

How the results depend on the processing

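For Potri.017G041700, the tissue differences kept their direction and their side of the threshold under all 20 alternatives at each Fe supply, with log2 fold changes of 4.57 to 6.27 with Fe and 4.59 to 5.92 without. Some of these alternatives left out a library of the other Fe supply, which could change only the filter, the scaling and the estimate of spread. The Fe effects kept their negative sign and passed the threshold in none of the 13 alternatives in shoots and 12 in roots. The log2 fold change was -0.99 to -0.28 in shoots and -0.70 to -0.48 in roots. By DESeq2 the adjusted p was 0.286 in shoots and 0.200 in roots. With library size alone the shoot value was -0.50, while the median of all genes moved from -0.01 to 0.19. The difference between root and shoot responses, 0.14, changed sign to -0.023 with library size alone, to -0.023 with reads in no gene and ambiguous reads in the library size, and to -0.28 without Fe-sufficient shoot replicate 2; it was -0.28 to 0.43 over the 12 omissions of a library and passed the threshold in none of the 20 alternatives. The cause was not tested.

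The title numbers of the shoots were tried as a replicate block. Deviations of same-numbered shoots correlated at -0.103, 0.025 and 0.101, and those of differently numbered shoots at -0.174 to 0.133. No shared deviation was thus seen by number, but so few libraries cannot show whether the numbers pair them. With the block, the log2 fold change of Potri.017G041700 was -0.58 in shoots (adjusted p by edgeR 0.629), the difference between responses was 0.03, and 134 genes were called in shoots against 252 without it, and 166 against 313 for the difference.

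Calls over all genes moved by over 1.5 times with DESeq2 (512 in shoots, 1075 in roots, 847 for the difference), with no filter on low counts (437 in shoots, 357 in roots) and in 1 fit of 12 libraries (508 in roots); roots gave 134 calls. Leaving out libraries gave 64 to 571 calls in shoots, 0 to 71 in roots and 104 to 264 for the difference. No alternative could be run for Potri.007G118400 or for the ratio of the copies, since that copy has no counts. The parts of depth and of replicate number in the Fe comparisons were not tested.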

Other observations

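The genes listed around each copy in the files were described as a group, without naming them. Of the 10 IDs listed next to Potri.007G118400, 5 on each side, 5 also had 0 counts in all libraries, where 20.9% of all IDs did. The highest mean among the others was 63.5 CPM in shoots and 58.6 CPM in roots. Of the 3 tested in all 12 libraries, 2 were called higher in shoots with Fe and 0 lower (edgeR, adjusted p under 0.05). Of the 10 IDs around Potri.017G041700, 2 had 0 counts in all libraries, and the highest mean was 105 CPM in shoots. Of the 7 of them tested in all 12 libraries, 4 were called higher in shoots and 1 lower with Fe (edgeR, adjusted p under 0.05), with log2 fold changes of -1.21 to 10.3. Of all 25046 genes tested, 31.2% were called higher and 16002 were called in either direction. The value of 10.3 belongs to an ID with 0 counts in all root libraries, so that value reflects the small count added in fitting. None of the 6 tested in shoots was called for Fe supply by edgeR, where 252 of all 21665 genes tested there were called.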
